A study of Mus musculus with 18 samples.

Results

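The genes described here are 6 transcripts used as markers of reserve, or +4, intestinal stem cells: Bmi1, Hopx, Tert, Lrig1, Sox9 and Mex3a. They were taken by symbol from the tables of all 3 time points, and all 6 were found in each table, out of 18838 gene identifiers in the series. The rule used the symbols alone. All 6 also passed the minimum mean normalized count of 10 at every time point, so none was left out of a test.

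RNA was measured in bulk in 18 libraries of duodenal epithelium from 3 WT and 3 Mtgr1-/- mice. Mtgr1, listed as Cbfa2t2, encodes a corepressor of the myeloid translocation gene family, and the null allele is carried in the germline and so by every cell of the animal. Each mouse gave 1 library of freshly isolated crypts, 1 library of enteroids 24 h after plating (day 1) and 1 library of enteroids 72 h after plating (day 3). The study's methods describe cohoused, age-matched male and female littermates, with enteroids made from the duodenum of mice aged 8 to 12 weeks, and the labels of these libraries do not give sex. No other allele or agent distinguishes the groups, so that WT and Mtgr1-/- libraries of a time point differ by genotype and by the mouse they came from.

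Reserve stem cells are thought to sit just above the crypt base, to divide rarely and to re-enter the cycle when the rapidly dividing Lgr5+ cells below them are lost. Bmi1, Hopx, Tert and Lrig1 were each proposed as markers by lineage tracing, whereas Sox9 and Mex3a were tied to slowly cycling or progenitor subsets. Transcripts of most of these genes are also found in Lgr5+ cells, so they do not define a cell type on their own.

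Reads on genes were between 22035316 and 28621990 in the 16 libraries whose whole reads could be recovered. The targeted gene was not lower in the libraries labelled Mtgr1-/-. Normalized counts of Cbfa2t2, which are counts divided by 1 factor per library, were 614, 523 and 595 in WT crypts and 697, 466 and 534 in crypts labelled Mtgr1-/-. The day 1 counts of WT were 788, 710.2 and 757, beside 1160.3, 1008 and 789 in the libraries labelled Mtgr1-/- (log2 difference 0.37, adjusted p = 0.0557, limma), and the day 3 counts were 869, 774 and 883 against 892, 976 and 766. The gene's total therefore did not check the genotype labels, and which exons the allele lacks is not given in the sources used here. The genes lie at chr2:18677018-18686629 (Bmi1, plus strand), chr5:77086988-77115121 (Hopx, minus), chr13:73626911-73649843 (Tert, plus), chr6:94604529-94700158 (Lrig1, minus), chr11:112782224-112787760 (Sox9, plus) and chr3:88532395-88541396 (Mex3a, plus) in GRCm38. Exons of Lrig1 overlap those of Slc25a26 on the other strand, which averaged 231.4 normalized counts in crypts, and exons of Hopx overlap the antisense Hopxos. The kit marked strand, but whether quantification used it is not stated. All 8 epithelial markers were above 0 in every group. Of 8 stromal markers, Col1a2, Col3a1 and Dcn, which define fibroblasts, were not listed in the enteroid tables, and the summed level was at most 27.3 CPM in any library. Vim made up most of it in WT enteroids, at 145 to 247 normalized counts. WT crypt library 3 stood apart, with 317 CPM (counts scaled to a common library total) for the sum of 7 immune markers, against 11.9 to 33.8 in the other 5 crypt libraries. In the crypts labelled Mtgr1-/-, library 2 held 1850 CPM of the 6 Paneth cell markers and the other two held at most 74.7, against 5000 to 6279 in WT, though limma, edgeR and DESeq2 each called 0 of the 6 there (6 had an unadjusted p below 0.05 in limma).

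The promoters of the genes are shown first, because the genes moved in opposite directions in enteroids. RefSeq promoters (GRCm38.p6, 250 bases before the transcription start and 50 after it) were found for 5 of the genes, Sox9 excepted, and Hopx had a pair of starts. Both strands were searched for CTTTGA, the core of the motif read by the Wnt effectors TCF and LEF, and for CAGCTG and CAGGTG, cores of the E-box read by E proteins, which MTG corepressors bind. The 3 motifs do not contain one another. The promoters of Tert (chr13:73626661-73626960, plus strand) and Hopx (chr5:77115074-77115373, minus strand, the first start) held an E-box core, in capitals here. Those of Lrig1 (chr6:94700096-94700395, minus strand) and Mex3a (chr3:88531696-88531995, plus strand, a RefSeq start upstream of the GENCODE gene), the genes of this set that fell the most among those with a promoter in the table, held none.
Tert: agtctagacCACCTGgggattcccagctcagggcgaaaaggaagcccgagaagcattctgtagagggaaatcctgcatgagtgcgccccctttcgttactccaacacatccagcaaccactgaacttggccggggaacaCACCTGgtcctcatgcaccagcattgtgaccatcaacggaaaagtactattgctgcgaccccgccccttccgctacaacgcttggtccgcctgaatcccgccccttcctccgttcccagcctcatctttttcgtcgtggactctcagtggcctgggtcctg
Hopx: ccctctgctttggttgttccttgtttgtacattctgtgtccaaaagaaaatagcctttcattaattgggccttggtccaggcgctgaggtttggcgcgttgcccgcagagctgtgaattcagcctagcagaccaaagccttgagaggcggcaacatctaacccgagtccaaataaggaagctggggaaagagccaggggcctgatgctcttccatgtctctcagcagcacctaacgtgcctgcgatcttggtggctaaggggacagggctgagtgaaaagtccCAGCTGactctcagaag
Lrig1: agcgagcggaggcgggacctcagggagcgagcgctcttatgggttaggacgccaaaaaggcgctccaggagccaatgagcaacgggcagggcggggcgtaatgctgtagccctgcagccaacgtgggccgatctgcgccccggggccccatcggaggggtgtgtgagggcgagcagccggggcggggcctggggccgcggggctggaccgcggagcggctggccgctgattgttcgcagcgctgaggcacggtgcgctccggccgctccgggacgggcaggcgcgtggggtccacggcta
Mex3a: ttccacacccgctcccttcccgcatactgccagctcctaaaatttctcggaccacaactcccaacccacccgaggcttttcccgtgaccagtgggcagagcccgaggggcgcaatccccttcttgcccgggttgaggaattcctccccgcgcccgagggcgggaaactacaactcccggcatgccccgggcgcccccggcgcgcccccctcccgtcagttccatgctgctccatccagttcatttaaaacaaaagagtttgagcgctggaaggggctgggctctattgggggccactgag
The capitals in Tert are CAGGTG read on the minus strand, at -241 and -111 from the start, and those in Hopx are CAGCTG at +34. CTTTGA was in none of the 6 promoters, CAGCTG in 1 and CAGGTG in 1. The promoter of Bmi1 and the second of Hopx held none of the 3 motifs. Hopx, with a core at its first start, fell in enteroids as Lrig1 and Mex3a did. Among all 32851 mouse promoters of that length, 16.0% held CTTTGA, 16.3% held CAGCTG and 20.2% held CAGGTG. These letters are a description of a short window, and they do not show where a factor binds. The share of G and C ran from 53.0% in the first Hopx promoter to 73.0% in Lrig1, against a median of 52.7% over all promoters.

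Levels were compared between the genes as normalized count per kilobase of exon (GENCODE M21 union of exons). Hopx was the highest and Lrig1 the next in all 6 groups. In WT crypts, the mean of the 3 libraries was 961 per kilobase for Hopx, 336 for Lrig1, 152 for Bmi1, 111 for Sox9, 24.8 for Tert and 13.1 for Mex3a, and no neighbours in that order overlapped. In crypts labelled Mtgr1-/-, Bmi1 (126 to 159 per kilobase) overlapped Sox9 (75.0 to 167), and Tert (14.9 to 20.7) overlapped Mex3a (6.16 to 22.7). WT enteroids had Sox9 above Bmi1 at both days, with 281 against 208 per kilobase at day 1 and 421 against 237 at day 3. At day 1 the libraries labelled Mtgr1-/- had the opposite order, with 90.1 for Sox9 and 177 for Bmi1, and at day 3 the libraries of these genes overlapped. The lowest gene also differed: Tert was lowest in WT enteroids, overlapping Mex3a at both days, while Mex3a was lowest in enteroids labelled Mtgr1-/-, at 6.87 per kilobase against 36.0 for Tert at day 1 and 14.3 against 64.8 at day 3. Lengths of the transcripts used in these cells are not known from the tables, so these levels are approximate.

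**Figure D1:**
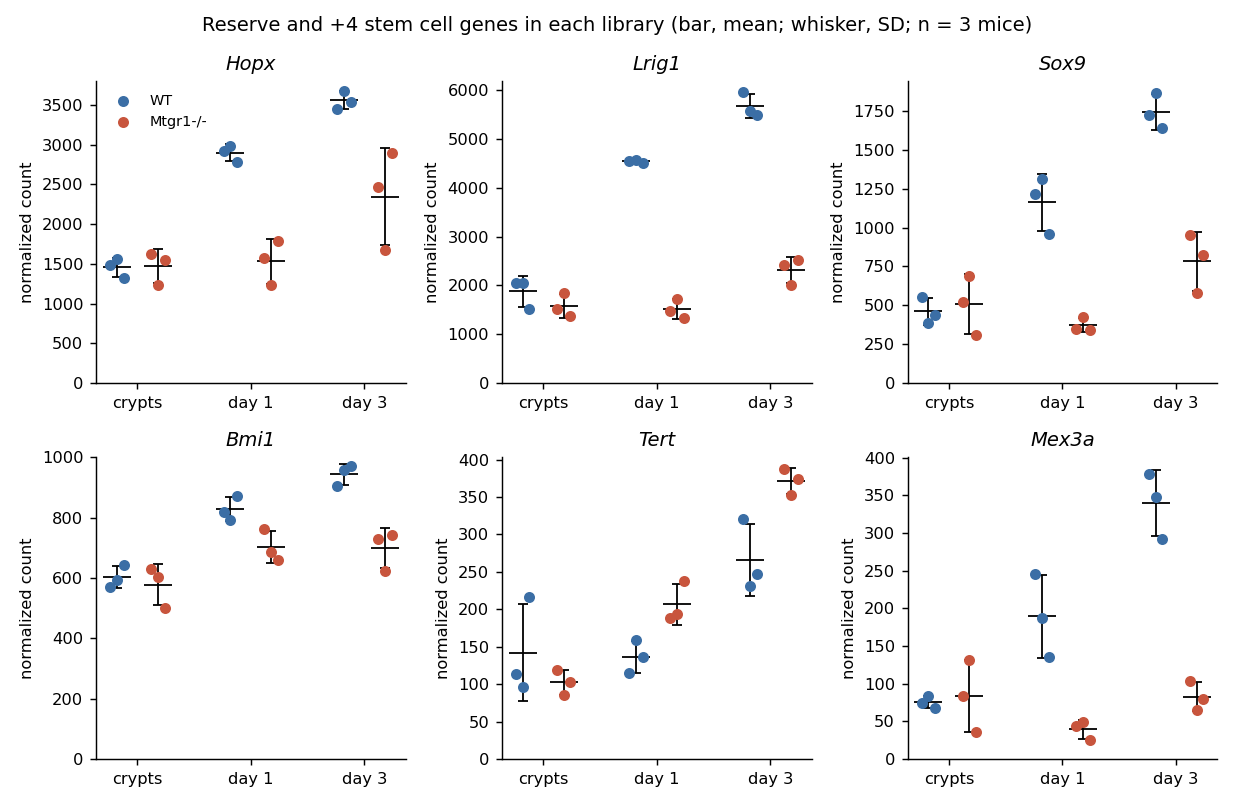
Normalized counts (y axis, linear, from 0) of each gene in crypts and in day 1 and day 3 enteroids (x axis). Points are libraries of 3 WT mice (blue) and 3 mice labelled Mtgr1-/- (red), with the mean and SD. The genotypes overlap for all 6 genes in crypts and for none in enteroids, where Tert alone is higher in the mice labelled Mtgr1-/-.

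In crypts, none of the 6 genes differed between the genotypes. The adjusted p was between 0.48 and 0.989 (limma), no unadjusted p was below 0.05, and edgeR and DESeq2 on recovered reads also called 0. Across all genes tested in crypts, 4.73% were called. For every one of the 6 genes the WT libraries and those labelled Mtgr1-/- overlapped, whereas the genotypes did not overlap for 25.5% of all genes tested. As tissue was measured in bulk, fewer cells of a type and less RNA per cell cannot be told apart in any of these values.

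Hopx, a homeodomain-only protein that does not bind DNA itself, was at 1491, 1559 and 1321 normalized counts in WT crypts and at 1628, 1229 and 1553 in crypts labelled Mtgr1-/-, a log2 difference of 0.0053 (95% interval -0.30 to 0.32). Bmi1, a subunit of polycomb repressive complex 1 (PRC1), was at 570.2, 595 and 645 against 630.1, 603 and 501 (log2 difference -0.066, interval -0.36 to 0.22). Lrig1, a transmembrane protein that restrains ErbB receptor signalling, was at 2056, 2057 and 1519 against 1515, 1849 and 1383 (log2 difference -0.24, interval -0.62 to 0.14). These were the 3 narrowest intervals of the 6 genes in crypts.

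The other 3 genes were measured less tightly in crypts. Sox9, a transcription factor of stem, progenitor and Paneth cells, was at 556, 386 and 441 in WT and at 523, 692 and 310.0 in the crypts labelled Mtgr1-/- (log2 difference 0.081, interval -0.62 to 0.78). Mex3a, an RNA-binding protein, was at 74.7, 84.1 and 67.9 against 83.8, 131 and 35.6 (log2 difference -0.038, interval -1.12 to 1.04). Both were highest in library 2 and lowest in library 3 of the 3 labelled Mtgr1-/-, and so was Lgr5, the receptor that marks active stem cells, at 388, 562 and 211. Library 2 was also the one with the most Paneth markers. Without it, the log2 difference was -0.18 for Sox9 and -0.45 for Mex3a, and without library 3 it was 0.47 for Mex3a, with no call.

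Tert, the catalytic subunit of telomerase, was at 114, 96.0 and 216 in WT crypts and at 119, 85.6 and 103 in crypts labelled Mtgr1-/-. The log2 difference was -0.39 (interval -1.17 to 0.38). The high value came from WT library 3, the library with 317 CPM of immune markers. Without that library the log2 difference was -0.045. Whether immune cells gave those Tert counts was not tested.

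In day 1 enteroids, Lrig1, Sox9, Mex3a and Hopx fell, Tert rose, and Bmi1 was not called. Of the 6 genes, 4 were lower, against 28.9% of all genes tested, and 1 was higher, against 30.0%. The genotypes did not overlap for any of the 6, but neither did they for 68.1% of all genes tested. Lrig1 was at 4541, 4567 and 4511 normalized counts in WT and at 1479.9, 1732 and 1326 in the libraries labelled Mtgr1-/-, which is 3.02-fold lower (log2 difference -1.59, 95% interval -1.84 to -1.35, adjusted p = 7.15e-05). The WT libraries were close to each other (mean 4539.6, SD 28.4), and those labelled Mtgr1-/- all lay below them. Sox9 was at 1217, 1313 and 956 in WT and at 349.8, 425 and 343 in those labelled Mtgr1-/- (3.10-fold lower, log2 difference -1.63, interval -1.98 to -1.29, adjusted p = 0.000189).

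Mex3a had the largest fall of the 6, from 246, 186 and 136 in WT to 44.3, 49.3 and 25.4 in the libraries labelled Mtgr1-/- (4.72-fold lower, log2 difference -2.24, interval -2.98 to -1.50, adjusted p = 0.000918). Only 3.22% of the genes tested at day 1 had a difference as low as this, against 5.07% for Lrig1 and 4.89% for Sox9. Hopx fell less, from 2925, 2987 and 2783 to 1574, 1232 and 1789 (1.91-fold lower, log2 difference -0.94, interval -1.25 to -0.62, adjusted p = 0.000963), and 12.9% of all genes were as low.

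Tert moved in the other direction. It was at 115, 158 and 136 in WT and at 188, 193 and 238 in the libraries labelled Mtgr1-/-, 1.51-fold higher (log2 difference 0.60, interval 0.19 to 1.01, adjusted p = 0.021). This call was lost without WT library 1 (adjusted p = 0.0764), WT library 3 (0.0538) or library 3 of those labelled Mtgr1-/- (0.0653). Bmi1 was at 819, 792 and 871 in WT and at 764, 686 and 661 in the others (log2 difference -0.24, interval -0.46 to -0.0094, adjusted p = 0.0692). It was called with edgeR on recovered reads (log2 difference -0.27, adjusted p = 0.0414).

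The scaling of the libraries bears on Tert and Bmi1. At day 1 the normalized counts summed to between 22946800 and 24911900 per WT library and between 27141300 and 31152200 per library labelled Mtgr1-/-. Scaled to that total, the median log2 difference of all genes moved from -0.0080 to -0.33, and the share of called genes that were higher moved from 50.9% to 28.3%. On that scale Tert was higher by 0.28 on the log2 scale and was not called (adjusted p = 0.272), and Bmi1 fell by 0.56 (adjusted p = 0.00377), both set against a median of -0.33. Lrig1, Sox9, Mex3a and Hopx fell on both scales.

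**Figure D2:**
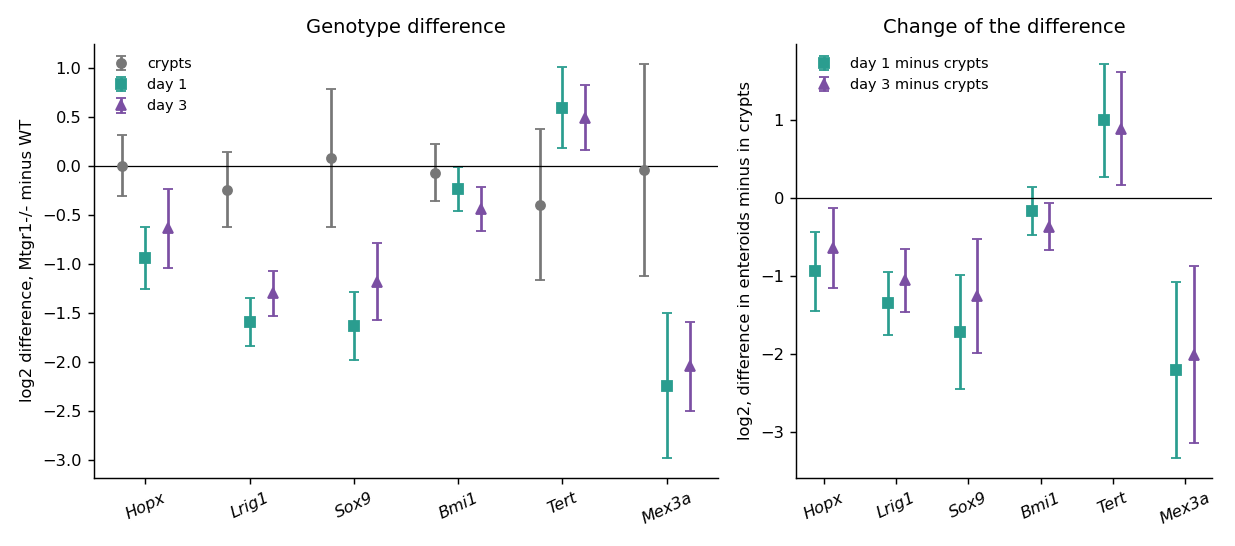
Left, log2 difference between mice labelled Mtgr1-/- and WT (y axis) for each gene in crypts (grey circles), day 1 (green squares) and day 3 (purple triangles). Right, the difference in enteroids minus that in crypts. Whiskers are 95% intervals from limma. All crypt intervals include 0, and at day 3 all 6 intervals exclude it, with Tert above 0 and the others below.

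At day 3 all 6 genes were called, with 5 lower and Tert higher. All genes tested were lower in 29.1% of cases and higher in 29.9%, and the genotypes did not overlap for 68.8% of them, as they did not for these 6. Mex3a was at 378, 348 and 292 in WT and at 104, 64.6 and 79.7 in the libraries labelled Mtgr1-/- (4.12-fold lower, log2 difference -2.04, interval -2.50 to -1.59, adjusted p = 0.000112). Lrig1 was at 5949, 5572 and 5494 against 2412, 2012 and 2519.6 (2.46-fold lower, log2 difference -1.30, interval -1.53 to -1.07, adjusted p = 3.6e-05). Sox9 was at 1720.0, 1863 and 1638 against 950.0, 578 and 822 (2.26-fold lower, log2 difference -1.18, interval -1.57 to -0.79, adjusted p = 0.000745). As low as these were 3.36%, 6.11% and 7.12% of the genes tested, in that order.

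Hopx was at 3453, 3677 and 3540.1 in WT and at 2468, 1681 and 2891 in those labelled Mtgr1-/-, where it spread the most (SD 614 against 113 in WT). It was 1.55-fold lower (log2 difference -0.64, interval -1.04 to -0.23, adjusted p = 0.015), and the call was lost without WT library 2 (adjusted p = 0.0525). In the libraries labelled Mtgr1-/-, number 2 was lowest for Hopx, Lrig1, Sox9, Mex3a, Bmi1 and Tert alike. Bmi1 was at 904, 957 and 970.0 in WT and at 729, 623 and 743 in the others (1.35-fold lower, log2 difference -0.44, interval -0.66 to -0.21, adjusted p = 0.00552). Tert was at 321, 231 and 247 in WT and at 387, 353 and 374 in those labelled Mtgr1-/- (1.41-fold higher, log2 difference 0.49, interval 0.16 to 0.82, adjusted p = 0.0185). The Tert call was lost without WT library 2 (0.0733) or WT library 3 (0.0693), and when libraries were scaled to their total (log2 difference 0.29, adjusted p = 0.157). That scaling moved the median of all genes to -0.20 and the share of calls that were higher from 50.7% to 35.2%, and left the 5 falls called.

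Cell type markers also differed between the genotypes in enteroids, and those of enteroendocrine and goblet cells already did in crypts. Beside the counts given here, 28.9% of all genes tested were lower and 30.0% higher at day 1. At day 3 the shares were 29.1% and 29.9%, and 4.73% were called in crypts. The sum of 6 proliferation markers was 1770 to 1873 CPM in WT and 598 to 966 in the libraries labelled Mtgr1-/- at day 1, with 5 of 6 genes lower, and 1896 to 2009 against 685 to 1142 at day 3, with 6 of 6 lower. All 6 Paneth markers were lower at both days, at 2725 to 2958 against 24.0 to 243 CPM at day 1, with Defa17 at 0 in library 1 of those labelled Mtgr1-/-. The 6 enterocyte markers were all higher, at 5372 to 6749 against 12693 to 18032 CPM at day 1 and 3826 to 4234 against 10361 to 16740 at day 3. All 6 enteroendocrine markers and the 4 goblet markers tested were lower at both days. They were lower in crypts too, with medians of -5.32 and -4.68 (edgeR called 5 and 4, DESeq2 6 and 4). Neurod1, Neurog3 and Insm1 passed the filter on mean count only through WT at each time point. Tuft markers, Il25 not listed, summed to 21.9 to 29.0 CPM in WT and 10.8 to 16.3 in the others at day 1, and 4 of 5 tested were lower. In crypts the tuft sum was 51.5 to 57.1 in WT and 79.5 to 259 in the others, and of 5 tested, limma and edgeR called 0 and DESeq2 4, while 5 had an unadjusted p below 0.05 in limma and 1 was called under scaling to the library total. Among stromal and immune markers, Vim was lower at both days (-3.44 and -3.09), and Csf1r (3.70 and 4.03) and, at day 3, Cd68 (0.85) were higher. Vim at day 3 was at 145, 154 and 177 in WT and at 2.28, 15.9 and 117 in the others. There edgeR and DESeq2 called 0 of the 2 stromal markers tested, and 1 of the 3 immune markers each, where limma called 2. At both days Csf1r passed the filter on mean count only through the libraries labelled Mtgr1-/-. The other 4 of 5 immune markers tested at day 1 were not called. Of these, Ptprc (-0.80), Cd3e (-0.74) and Cd3g (-1.80) were negative and Cd68 (0.24) was positive. At day 3 Ptprc (0.30) was not called. The part of these marker shifts in the values of the 6 genes was not tested.

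Between crypts and enteroids, the genotype difference itself changed for most of the 6. A limma model of all 18 libraries compared the log2 difference at day 1 or day 3 with that in crypts. A factor common to all libraries of a table cancels there, but a scaling difference between the genotypes does not. From crypts to day 1, it became more negative for 4 of the 6, against 21.1% of all genes tested, and more positive for Tert, against 20.3%. The changes were -2.20 for Mex3a (interval -3.33 to -1.07, adjusted p = 0.00536), -1.71 for Sox9 (-2.44 to -0.99, adjusted p = 0.00232), -1.35 for Lrig1 (-1.75 to -0.95, adjusted p = 0.000453) and -0.94 for Hopx (-1.45 to -0.43, adjusted p = 0.00699). The change for Tert was 0.99 (interval 0.26 to 1.71, adjusted p = 0.0301). Its call was lost when any mouse other than WT mouse 2 was left out, with adjusted p from 0.0507 to 0.125, and under scaling to the library total (change 0.64, adjusted p = 0.151). Bmi1 changed by -0.17 (interval -0.47 to 0.13, adjusted p = 0.356), and by -0.52 with a call under scaling to the library total (adjusted p = 0.0349). That scaling moved the median change of all genes tested from 0.0095 to -0.34, and the share of calls that were more positive from 49.1% to 21.2%.

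From crypts to day 3, the change was called for Mex3a (-2.01, adjusted p = 0.0128), Sox9 (-1.26, adjusted p = 0.0144) and Lrig1 (-1.06, adjusted p = 0.00188), all more negative, as were 15.1% of all genes tested, while 16.5% became more positive. Hopx (-0.64, adjusted p = 0.0524), Bmi1 (-0.37, adjusted p = 0.0578) and Tert (0.88, adjusted p = 0.0593) did not pass the threshold. Lrig1 kept its call whichever mouse was left out, whereas Mex3a lost it without WT mouse 1 (adjusted p = 0.0621) or WT mouse 2 (0.0558), and Sox9 without WT mouse 2 (0.081) or mouse 2 of those labelled Mtgr1-/- (0.0523). With mouse numbers as a block, Hopx was called as well (adjusted p = 0.0406), and under scaling to the library total Hopx (0.0172) and Bmi1 (0.0256) were. That scaling moved the median change of all genes tested from -0.0089 to -0.24. Between day 1 and day 3 the difference changed for none of the 6 (0 with unadjusted p below 0.05), while 0.0329% of all genes tested changed, 4 genes, a number that was 879 without mouse 2 of those labelled Mtgr1-/-. The intervals were -0.50 to 0.10 for Bmi1 and -0.11 to 0.70 for Lrig1, but -0.93 to 1.32 for Mex3a.

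Levels over time were set side by side as CPM of each library's summed normalized counts, with no test, since the 3 tables were normalized separately. In each of the 3 WT mice, Lrig1, Sox9, Mex3a, Hopx and Bmi1 were higher at day 3 than in crypts. The median of the 3 mice was 4.59-fold for Mex3a (4.38 to 5.37), 3.96-fold for Sox9 (3.28 to 5.11), 3.07-fold for Lrig1 (2.87 to 3.85), 2.50-fold for Hopx (2.46 to 2.85) and 1.68-fold for Bmi1 (1.60 to 1.70). A joint median-ratio scaling of all 18 libraries gave 3.57-, 3.08-, 2.51-, 2.03- and 1.37-fold, also higher in 3 of 3 mice. At day 1, Lrig1 was 2.46-fold and Hopx 2.12-fold its crypt level.

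The mice labelled Mtgr1-/- departed from this course between crypts and day 1. At day 1, Mex3a was at 0.41 of its crypt level (median of 3 mice), Sox9 at 0.54 and Lrig1 at 0.82, each lower in 3 of 3 mice on both scales, and Hopx was at 0.88 with 1 mouse higher on the joint scale. From day 1 to day 3, Mex3a, Sox9, Lrig1 and Hopx rose in 3 of 3 of these mice on both scales. Their median rises in CPM were 2.79-, 2.75-, 1.95- and 1.85-fold, against 1.78-, 1.49-, 1.19- and 1.24-fold in WT. Set against crypts, the mice labelled Mtgr1-/- differed by day 3. Bmi1 ranged from 0.83 to 1.48 of its crypt level, with 2 of 3 mice higher. Mex3a was at 0.40 of its crypt level in the lowest mouse and at 2.23-fold in the highest, Sox9 ranged from 0.67 to 2.64 and Lrig1 from 0.88 to 1.81, with 2 of 3 mice higher for each. Hopx was higher in 3 of 3 mice, by a median of 1.31-fold on the joint scale. Tert was the gene with the largest rise in these mice, at 3.33-fold its crypt level (3.01 to 3.62) at day 3, against 2.54-fold in WT (1.22 to 2.98), where 1 mouse was lower on the joint scale (0.95). In WT mouse 3, whose crypt library held the immune markers, Tert was at 0.68 of its crypt level at day 1, while in WT mouse 2 it was 1.83-fold.

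**Figure D3:**
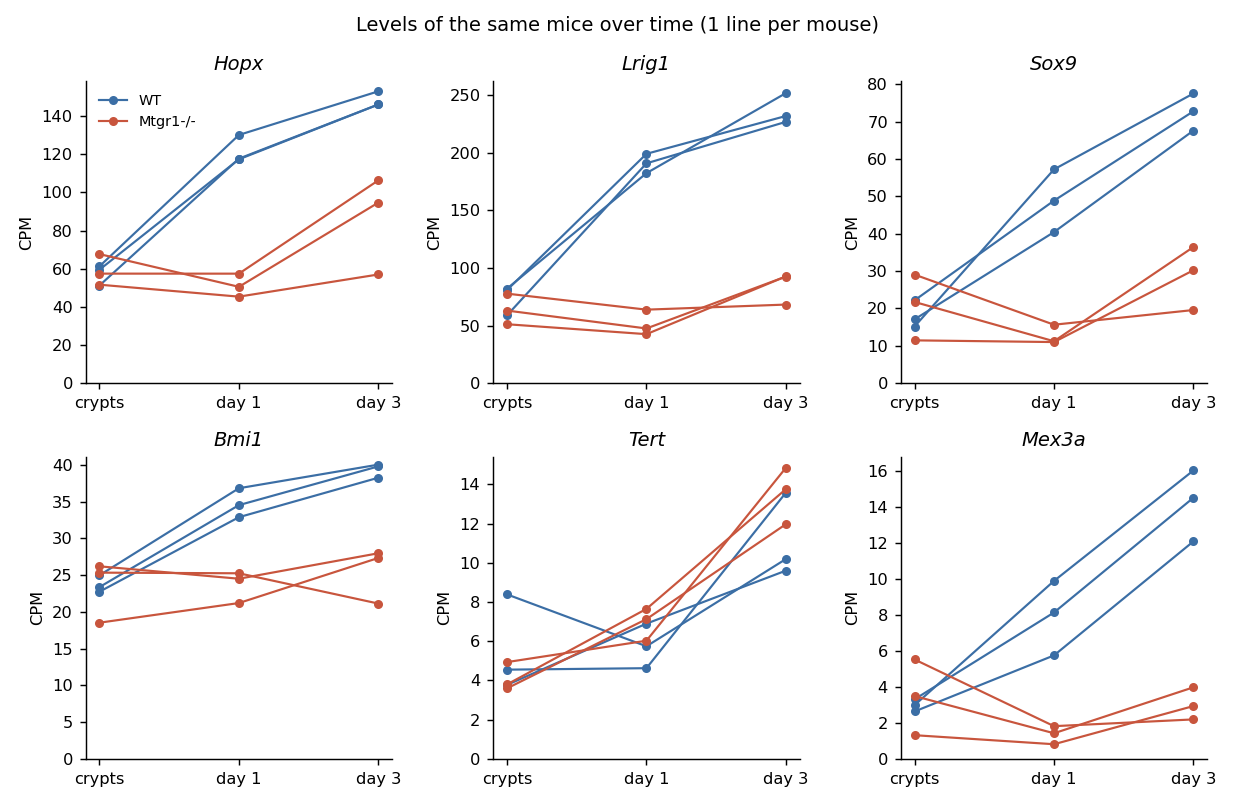
CPM (y axis, linear, from 0) of each gene in crypts, day 1 and day 3 (x axis), with 1 line per mouse (WT blue, labelled Mtgr1-/- red). WT lines climb at each step for all genes but Tert. Red lines for Mex3a, Sox9 and Lrig1 go down to day 1 and up from there to day 3.

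Genes that act with the 6, taken from short lists, were compared in the same fits. PRC1 is built of a RING E3 ligase, 1 of several Pcgf proteins such as Bmi1, and Cbx and Phc subunits or Rybp. In crypts, 2 of 19 tested PRC1 genes were higher, Rybp (0.47) and Scmh1 (1.13, not called under scaling to the library total, adjusted p = 0.0552), and 0 lower (edgeR called 0 and DESeq2 3), with a median log2 difference of -0.051 beside 0.0076 over all genes. At day 1, 6 of 19 were lower and 3 higher (median -0.14), where 28.9% and 30.0% of all genes were. At day 3, beside 29.1% and 29.9%, 9 of 20 were lower and 4 higher (median -0.14 beside 0.0026). Both the 20 and the 4 higher include Cdkn2a, which is not a PRC1 subunit and whose entry into the test is described below. The largest falls at day 3 were in Cbx6 (-1.81), Cbx2 (-1.10) and Kdm2b (-1.03), all subunits or partners. Among genes picked after their values were seen, Pcgf2, the closest relative of Bmi1, fell by 0.67, while the ligases Rnf2 (-0.037) and Ring1 (-0.19) were not called, the latter only on the deposited scale. Cdkn2a, the cell cycle inhibitor locus that Bmi1 represses, had 0, 0.891 and 3.87 normalized counts in WT at day 3. The libraries labelled Mtgr1-/- had 7.96, 21.9 and 27.0 (log2 difference 3.09, adjusted p = 0.00727, limma). Cdkn2a passed the filter on mean count there only through the libraries labelled Mtgr1-/-, so its entry into the test depended on the difference tested. Whether the lower Bmi1 had a part in this difference was not tested. Cdkn2a stayed below 5 normalized counts in every crypt and day 1 library and was not tested there. Rybp rose at both days (0.62 and 0.50). Pcgf3 rose by 0.30 at day 1, but was not called and was slightly negative (-0.023) under scaling to the library total.

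Tert rose while most of its partners fell. Of 13 genes of the telomerase particle and of shelterin, which caps telomeres, 0 were called in crypts (0 also by edgeR, by DESeq2 and at an unadjusted p below 0.05 in limma), 10 were lower at day 1 (median -0.56 beside -0.0080 over all genes) and 9 at day 3 (median -0.53 beside 0.0026), where 28.9% and 29.1% of all genes were lower. The count tests called 9 (edgeR) and 8 (DESeq2) at day 1, and 8 each at day 3. Gar1 (-1.26), Dkc1 (-1.24) and Naf1 (-1.20), which assemble or stabilize the telomerase RNA particle, fell the most at day 1. Dkc1 was at 3008, 2581 and 2897 normalized counts in WT and at 1209, 1525 and 919 in the libraries labelled Mtgr1-/-. Terf2ip was called higher at day 3 (0.26, adjusted p = 0.0488) but not under either other scaling.

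Around Lrig1, some of the receptors were higher in enteroids, as were 30.0% of all genes tested at day 1 and 29.9% at day 3. None of 7 tested genes of the Lrig family and the ErbB, Met and Ret receptors was called in crypts by limma, edgeR or DESeq2, and 1 had an unadjusted p below 0.05. At day 1, Erbb3 (1.05), Egfr (0.51) and Erbb2 (0.45) and the relative Lrig2 (0.39, named because only 4 genes rose) were higher and Lrig3 (-0.30) was lower, while Ret (0.50) and Met (0.14) were not called. Erbb3 was at 5497, 4441 and 4928 in WT and at 10297, 8749 and 11785 in the libraries labelled Mtgr1-/-. The genotypes did not overlap for Erbb3, nor for 68.1% of all genes tested. At day 3, Erbb3 (0.78), Egfr (0.47) and Erbb2 (0.40) were higher and Lrig3 (-0.41) lower. Under scaling to the library total only Erbb3 among the higher ones was still called at day 1, and Erbb3 and Erbb2 at day 3.

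Sox9 fell with some of its relatives, of which 14 were listed and 4 passed the filter in crypts, 5 in day 1 and 6 in day 3 enteroids. Sox4, a transcription factor of progenitors, was at 1957, 1941 and 1544 in WT and at 612, 588 and 533 in the libraries labelled Mtgr1-/- at day 1 (log2 difference -1.64), and Sox12 (-2.24) fell too, while Sox6 (1.43) and Sox13 (0.78) rose and Sox21 was not called. At day 3, Sox5 (-2.80), Sox12 (-1.69) and Sox4 (-1.61) were lower and Sox21 (2.02), Sox6 (0.87) and Sox13 (0.66) higher, and none was called in crypts by limma or edgeR (1 by DESeq2, 2 at an unadjusted p below 0.05). Sox5 rested on few counts, 17.8 to 26.9 in WT and 1.12 to 3.41 in the others. It passed the filter at day 3 only through WT, as Sox12 did at day 1, with 32.0 to 39.6 against 4.665 to 9.48. Their entry into those tests therefore depended on the difference tested. Of the Mex3 family, Mex3d fell at day 1 (-1.33) and day 3 (-0.91), Mex3b had log2 differences of -0.56 and -0.51 with no call, and Mex3c was at 0.16 with no call at day 1 and rose by 0.31 at day 3, with no call under scaling to the library total, which turned its day 1 value to -0.16 and called Mex3b lower at both days. In crypts 0 of the 3 were called by limma, edgeR or DESeq2 (0 at an unadjusted p below 0.05), with values of -0.57 for Mex3b, 0.13 for Mex3c and 0.032 for Mex3d.

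Hopx acts by binding serum response factor, Srf, and the deacetylase Hdac2. Of the 5 genes listed with it, 3 were lower at each enteroid time point and 0 in crypts (0 also by edgeR, by DESeq2 and at an unadjusted p below 0.05). Among all genes tested, 28.9% were lower at day 1 and 29.1% at day 3. Hdac2 (-0.91 at day 1 and -0.78 at day 3) and the coactivator Mrtfb (-0.58 and -0.59) fell at both days. Srf fell at day 1 (-0.28, adjusted p = 0.0484) and was at -0.12 with no call at day 3, Epc1 was at -0.038 and then fell by 0.26, and Mrtfa was at 0.27 and 0.074 with no call. Scaled to the library total, Epc1 was called at day 1 and Mrtfa was below 0 at both days. Crypt values of the 5 ran from -0.33 for Mrtfa to -0.065 for Srf, with Epc1 at -0.14, Hdac2 at -0.12 and Mrtfb at -0.11.

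**Figure D4:**
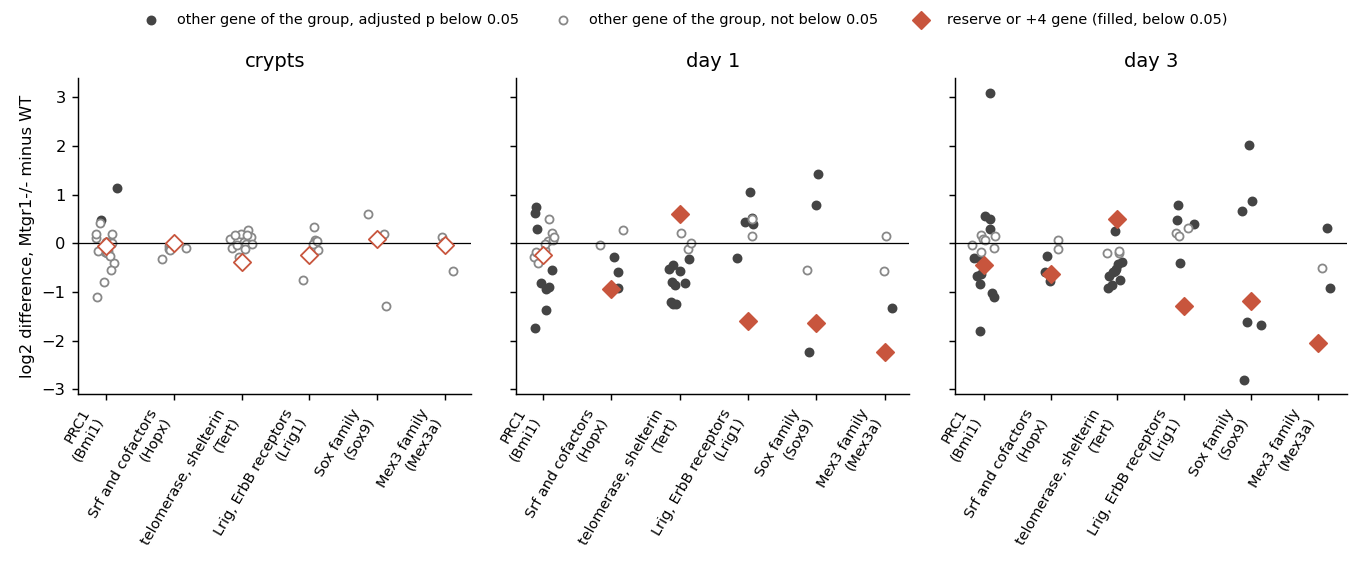
Log2 difference between mice labelled Mtgr1-/- and WT (y axis) for each gene (red diamond) and the genes listed with it (circles, filled where adjusted p was below 0.05), in crypts, day 1 and day 3. In enteroids Tert lies above every gene of its group, and Lrig1 below every gene of its own.

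Other genes proposed as reserve or slow-cycling markers split in enteroids. Of 9, 1 was higher and 0 lower in crypts, and 3 were higher and 4 lower at both day 1 and day 3. The medians were 0.41, -0.030 and -0.17 beside 0.0076, -0.0080 and 0.0026 over all genes. All genes tested split as well, with 28.9% lower and 30.0% higher at day 1 and 29.1% and 29.9% at day 3. In crypts 4.73% of them were called. Msi1, an RNA-binding protein, fell the most (-3.11 at day 1 and -3.83 at day 3), followed by Cd24a (-2.21 and -2.34) and Dclk1 (-1.11 and -1.10), a gene also used as a tuft marker, and by Msi2 (-0.31 and -0.39). Clu, which marks revival stem cells after injury, rose. It was at 1252, 799 and 969 normalized counts in WT and at 8487, 7898 and 2840.0 in the libraries labelled Mtgr1-/- at day 1 (log2 difference 2.54), and at 1358, 916 and 1280.0 against 30995, 20413 and 19317 at day 3 (4.30, adjusted p = 7.02e-06). In crypts it was at 21.1, 1.98 and 24.2 against 88.5, 138 and 56.9, which was not called (2.92, adjusted p = 0.117). Cdkn1c, an inhibitor of cyclin-dependent kinases, was higher at both days (1.61 and 1.33), and Krt19 was higher at day 1 (0.46, not called under scaling to the library total) and day 3 (1.16). Prox1 was the gene limma called in crypts (edgeR called 1 and DESeq2 4 of the 9, and 5 had an unadjusted p below 0.05 in limma; log2 difference 2.90, adjusted p = 0.00582), at 27.8, 31.7 and 34.5 against 378, 237 and 154, in the libraries whose tuft markers summed above WT, and the part of tuft cells in this value was not tested.

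Most genes of active crypt base stem cells fell in enteroids. In crypts 3 of 17 were lower, Olfm4 (-6.77), Aqp4 (-1.54, not called under scaling to the library total, adjusted p = 0.0511) and Rgmb (-0.87), with a median of -0.34. At both enteroid time points 15 of 17 were lower and 0 higher, with medians of -2.24 and -2.31. At day 1, Olfm4, Tnfrsf19 and Gkn3 passed the filter on mean count only through WT. Of all genes tested, 28.9% were lower at day 1 and 29.1% at day 3, and 4.73% were called in crypts. Lgr5 was at 725, 914 and 816 in WT and at 77.0, 97.7 and 58.5 in the libraries labelled Mtgr1-/- at day 1 (log2 difference -3.40), and the difference was -4.47 at day 3. Ascl2, a Wnt-dependent factor of these cells, was at -1.62 and -1.98, and Mki67, expressed in cycling cells, at -1.13 and -0.995. No test compared these genes with the 6.

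Across the 18 libraries, after each table was centred on its own mean, the pattern of Lrig1 was most like those of Qsox2, Myb and Rangrf (Pearson r 0.99 for each) out of 12145 genes. Sox9 was most like Armc10 (0.98), Sox4 (0.97) and Nono (0.97), and Mex3a like Eed, Tceal9 and Elp2 (0.98 for each). For Bmi1 the leading genes were Lims1, Apcdd1 and Cachd1 (0.91 to 0.92), for Hopx Rnps1, Rps2 and Arhgef28 (0.92 each), and for Tert Trp53inp1 (0.94), Ap3m2 and Tsga10 (0.92 each). Among the 6, r was 0.96 for Sox9 with Mex3a, 0.94 for Lrig1 with Mex3a and 0.93 for Lrig1 with Sox9, and Tert was negative with all others, from -0.66 with Lrig1 to -0.40 with Bmi1. These values describe libraries that share the genotype groups and mice, so they carry no p.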

How the data were processed

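The authors trimmed single 50-base reads of stranded mRNA libraries with fastp 0.20.0, quantified them with Salmon 1.3.0 against GENCODE transcripts and compared genotypes with DESeq2 1.26.0. The deposited signal is the count per gene divided by 1 factor per library, normalized separately at each time point. The deposited log2 fold change, score and p-value columns hold the authors' own comparisons and were not used. Here, log2(normalized count + 1) of genes with a mean of at least 10 was tested with limma 3.58.1 (R 4.3.3, eBayes with trend, two-sided), 3 against 3, with Benjamini-Hochberg adjustment over all genes of a table and a threshold of 0.05. Log2 differences on this scale understate changes of low genes. Changes of the difference were fitted over the 18 libraries together, mice entering as random effects (correlation -0.0048). Values were whole multiples of 1 read (within 0.1 of a read) in 100% of cases in 16 libraries, and count tests (edgeR 4.0.16, DESeq2 1.42.0) used those. WT crypt library 2 and day 3 library 2 of those labelled Mtgr1-/- had steps too close to 1 for this and did not enter them. An exact permutation test of 1 gene, 3 against 3, cannot go below 0.1. Steps were tested on simulated data. Mouse numbers are from the labels and tie the time points of 1 mouse. Deviations of each library from the mean of its group, taken across genes, were correlated between WT and Mtgr1-/-. Same-numbered libraries gave 0.076, 0.27 and 0.35 in crypts and 0.12, 0.23 and 0.22 at day 1. Pairs of unlike number ran from -0.30 to 0.20 in crypts, the highest being WT 1 with Mtgr1-/- 2. At day 1 they ran from -0.19 to -0.015. At day 3 same-numbered pairs gave -0.0067, -0.0023 and -0.016, and the others -0.097 to 0.10. Equal numbers may therefore pair the genotypes in crypts and at day 1, which the labels do not state. The values printed are from the fit without the block, which was an alternative and changed no call of the 6 genes at any single time point. Genes named were the 6, all members of lists of up to 6 genes, otherwise up to 3 falls and 3 rises past the threshold per list and time, and 3 genes of most similar pattern. The 6 genes and all lists were chosen with earlier results of these data known. Alternatives were each library or mouse left out, pseudocounts of 0.1 and 8, no filter, other scalings, the block and count tests.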

Additional observations from a re-analysis of the deposited data

Results flagged for a closer look

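The change of the genotype difference between time points passed the threshold for 8 combinations of gene and time (limma interaction, adjusted p below 0.05). From crypts to day 1 it was -0.94 for Hopx, 0.99 for Tert, -1.35 for Lrig1, -1.71 for Sox9 and -2.20 for Mex3a on the log2 scale. From crypts to day 3 it was -1.06 for Lrig1, -1.26 for Sox9 and -2.01 for Mex3a. Groups of 3 libraries are too small for a test of single outlying values.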

How the results depend on the processing

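No alternative called any of the 6 genes in crypts, and none ended a call of Lrig1, Sox9 or Mex3a at day 1 or day 3. The number of all genes called in crypts was 614, and was 209 with edgeR, 1200 with DESeq2 and 175 to 605 with 1 library left out. Crypt differences near 0 changed sign without a call. With 1 library left out they ranged from -0.13 to 0.033 for Bmi1, -0.073 to 0.13 for Hopx, -0.18 to 0.40 for Sox9 and -0.45 to 0.47 for Mex3a. Median-ratio rescaling gave -0.018 for Hopx, and edgeR and DESeq2 each gave 0.22 for Mex3a. The change from day 1 to day 3 ranged from -0.31 to 0.15 for Tert and -0.078 to 0.54 for Mex3a with 1 mouse left out, and was 0.013 for Tert under scaling to the library total, a setting chosen after seeing the data. The number of the 6 genes whose difference changed from crypts to day 3 was 3, and was 5 under that scaling and 1 to 5 with 1 mouse left out. With mouse number as a replicate block, 0 of the 6 genes were called for crypts, 5 for day 1 and 6 for day 3 enteroids, and the block changed no call but that of Hopx from crypts to day 3 (adjusted p = 0.0406). It called 562, 8027 and 7289 of all genes. The cause of these shifts was not tested. With 3 mice per genotype, the crypt intervals of Tert, Sox9 and Mex3a were wide, and differences inside them were not detectable.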
